A study of Mus musculus with 4 samples.

Results

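Markers of the alveolar, club and ciliated cells of the lung were followed in bronchoalveolar stem cells (BASCs), with and without depletion of the transcription factor c-Myc. The set holds 37 genes, namely 17 markers of alveolar type II (AT2) cells, 9 of alveolar type I (AT1) cells, 8 of club and other secretory cells and 3 of ciliated cells. A marker was read through every probe set whose annotated gene symbol was that gene alone. This gave 60 probe sets for 36 genes, among 45,037 probe sets in all. The AT2 marker Lamp3 shares its 1 probe set with Ppid and is not analysed here.

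The expression data came from 4 single-colour Affymetrix mouse arrays, 2 of control BASCs and 2 of Myc-depleted BASCs. The cells had been sorted from lungs of ICR mice 4 to 6 weeks old as lacking CD31 and CD45 and carrying CD34 and Sca-1, and were first plated on irradiated mouse embryonic fibroblasts. For the established cells, the paper's methods describe passage onto these fibroblasts, and its results describe culture on dishes coated with collagen. Whether feeder cells were present when RNA was taken for the arrays is not stated. Depletion used lentiviral short hairpin RNA against c-Myc and selection with puromycin over several generations, which gave stable lines. The paper calls the array controls wild type. Neither the hairpin used nor any infection or selection of the controls is given for these arrays, so effects of virus and puromycin cannot be told apart from depletion. The labels do not say whether arrays of 1 group came from separate cultures, so the p-values rest on a spread between arrays that may be no more than technical. Each value given is the log2 expression value of 1 probe set, and a difference is the Myc-depleted mean less the control mean.

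AT2 cells are cuboidal cells of the alveolus that make and secrete surfactant, a film of lipid and surfactant proteins that keeps the air space open. AT1 cells are thin and flat and carry gas exchange, club cells line the small airways and secrete secretoglobins, and ciliated cells move the airway fluid. BASCs lie where the airway meets the alveolus and are defined by carrying a marker of AT2 cells, surfactant protein C (Sftpc), together with a marker of club cells, the club cell secretory protein (Scgb1a1).

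A pair of arrays, 1 of each group, stood apart in how far the 3′ end of transcripts was read over the 5′ end. The poly-A spike-in transcripts, added RNAs read at both ends, had a 3′ minus 5′ difference of 1.62 on control 1, 3.01 on control 2, 3.67 on Myc-depleted 1 and 1.50 on Myc-depleted 2. The probe sets of the sample's own actin transcript gave 0.60, 1.36, 1.95 and 0.69 in the same order. Control 2 and Myc-depleted 1 thus read more from the 3′ end than the others by both measures, and the cause was not tested.

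On these arrays Sftpc, Scgb1a1 and the lung transcription factor gene Nkx2-1 read low, and the other markers lay on both sides of a threshold for low values. Abca3 (7.63), Cbr2 (6.99) and Hopx (6.35) lay over it on all 4 arrays. Among the highest were Cav1 and Pdpn, which other cell types use as well. A probe set was called low when its mean over the 4 arrays lay under the 40th percentile of all probe sets, log2 5.08. By construction 27,022 of all 45,037 probe sets (60%) lay over this threshold, and 26 of the 60 marker probe sets (43.3%) did. By gene, 20 of 36 had a probe set over it, with 7 of 16 AT2 markers, 7 of 9 AT1 markers, 5 of 8 club and secretory markers and 1 of 3 ciliated markers. All 4 arrays lay over the threshold for 15 of these genes, and no array did for 12 of the others. The threshold compares levels across probe sets of unlike sensitivity, and a level under it does not show that a transcript was absent. Akap5, with a mean of 5.08, was the marker just inside, and Napsa, with 5.05, the marker just outside.

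**Figure D1:**
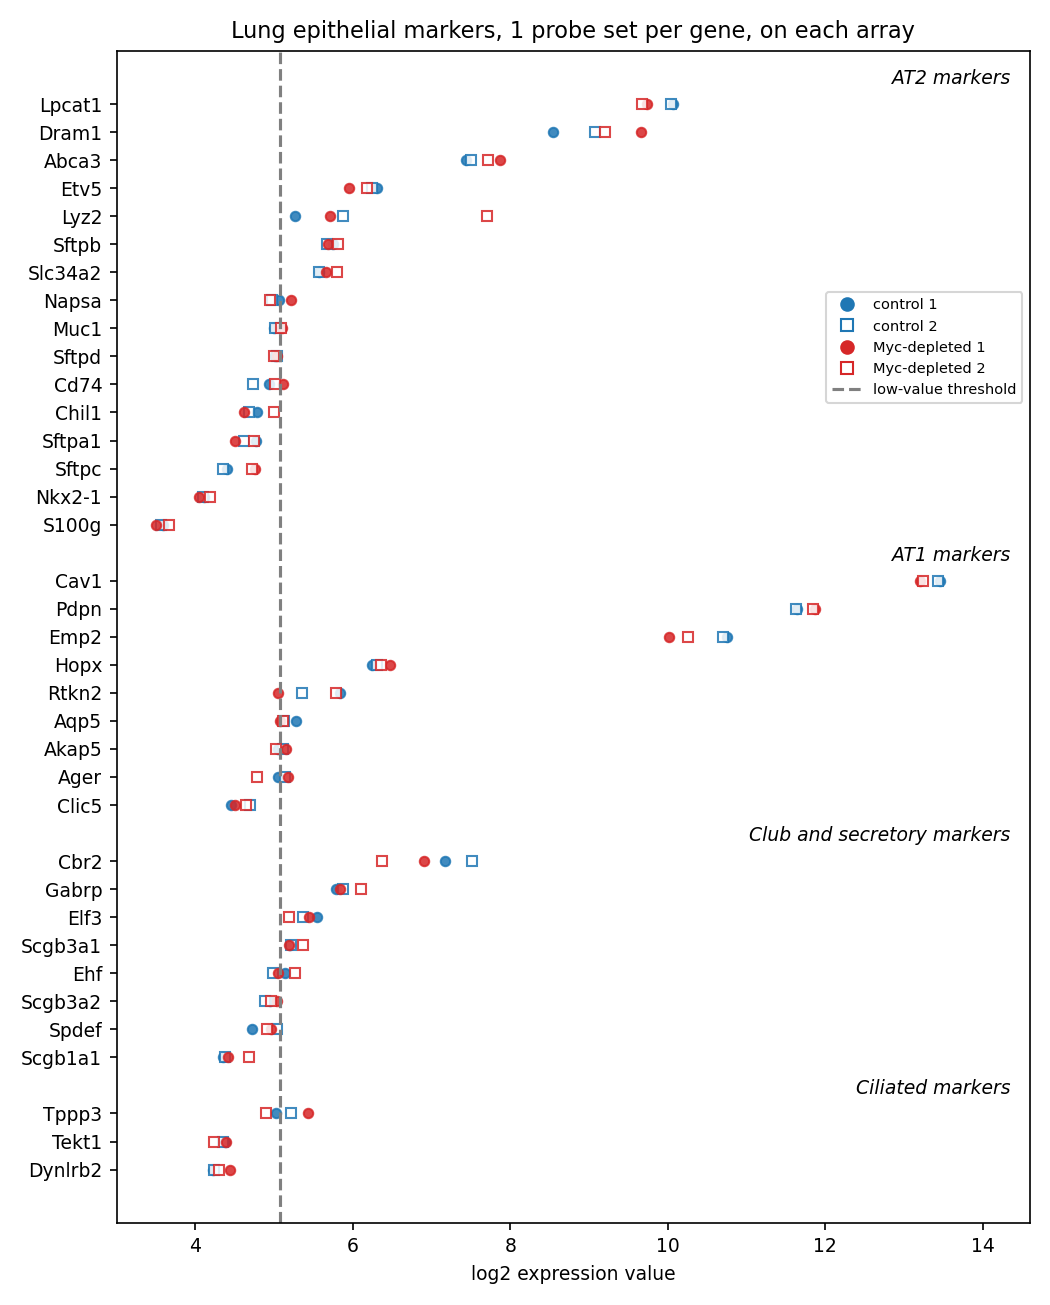
Log2 expression value of each marker on each of the 4 arrays, for the probe set with the highest mean of each gene, with control arrays in blue, Myc-depleted arrays in red, replicate 1 as filled circles and replicate 2 as open squares. The dashed line is the low-value threshold, log2 5.08; Sftpc, Nkx2-1 and Scgb1a1 lie under it on every array, and Cav1, Pdpn, Emp2 and Lpcat1 lie far over it.

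Among the surfactant protein genes, Sftpc, which encodes surfactant protein C, read under the threshold on every array. Its brighter probe set gave 4.40 and 4.35 on the control arrays and 4.75 and 4.72 on the Myc-depleted arrays. The other Sftpc probe set gave 4.20 and 4.18 in control cells and 4.30 and 4.32 in Myc-depleted cells. Both probe sets were thus higher on both Myc-depleted arrays, by 0.37 and 0.12. In a fit with no filter on low values the first of these differences had a 95% interval of 0.10 to 0.63 and a limma adjusted p of 0.465 (unadjusted p = 0.0186), and it did not pass the threshold. Of the 18,015 probe sets under the threshold, 2.52% differed at least as far from 0, and 34.2% had groups that did not overlap. The mean of the brighter Sftpc probe set stood at percentile 23.3 of all probe sets.

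The other surfactant proteins followed no common direction. Sftpa1 and Sftpd, the collectins surfactant protein A and D that bind microbes, had means of 4.66 and 5.02 and differences of -0.07 and -0.01. Sftpb, the surfactant protein that spreads the lipid film, was the 1 member of this group over the threshold. It gave 5.75 and 5.68 in control cells and 5.69 and 5.81 in Myc-depleted cells, so the groups overlapped. The difference was 0.04, with a 95% interval of -0.30 to 0.37.

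Nkx2-1, the transcription factor that sets lung epithelial identity and drives the surfactant genes, gave 4.11 and 4.10 in control cells and 4.04 and 4.18 in Myc-depleted cells. This was percentile 9.22 of all probe sets, and the 2 groups overlapped. Its difference was 0.01, with an interval of -0.28 to 0.30 in the fit without a filter.

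AT2 markers that serve surfactant lipid were brighter. Lpcat1, an acyltransferase that makes surfactant phosphatidylcholine, gave 10.07 and 10.04 in control cells and 9.74 and 9.67 in Myc-depleted cells. Both Myc-depleted arrays lay under both control arrays. The difference was -0.35 (SE 0.111, 95% interval -0.66 to -0.04), with a limma adjusted p of 0.457 (unadjusted p = 0.0347). The other tested Lpcat1 probe sets differed by -0.38, -0.18 and -0.11, of which the first had groups that did not overlap. Abca3, the transporter that loads lipid into lamellar bodies, gave 7.44 and 7.50 in control cells and 7.87 and 7.71 in Myc-depleted cells. Its difference was 0.33 (SE 0.125), with a limma adjusted p of 0.517, and its second tested probe set differed by 0.11. Lpcat1 was therefore lower and Abca3 higher on both Myc-depleted arrays, and neither difference passed the threshold.

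The remaining tested AT2 markers also stayed short of it. Dram1, a lysosomal membrane protein of autophagy, gave 8.54 and 9.08 in control cells and 9.66 and 9.21 in Myc-depleted cells. The groups did not overlap, and the difference of 0.62 (SE 0.271) had a limma adjusted p of 0.558. Within arrays of like spike-in value it was 0.66 (Myc-depleted 2 minus control 1) and 0.58 (Myc-depleted 1 minus control 2). These share a sign because the groups did not overlap. With the spike-in value as a covariate, an alternative added after seeing the data that calls 3171 probe sets of all, the limma adjusted p was 0.0337. The difference was 0.35 without control replicate 1 and 0.39 without Myc-depleted replicate 1. Slc34a2, the phosphate cotransporter of the AT2 surface, was higher on both Myc-depleted arrays by 0.16. Etv5, an Ets factor, was lower on both, with a difference of -0.22 on its one tested probe set.

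Lyz2, the lysozyme of AT2 cells and also of macrophages, showed the largest difference among the tested markers, and it rested on 1 array. It gave 5.27 and 5.88 in control cells and 5.71 and 7.71 in Myc-depleted cells, and the groups overlapped. The difference was 1.14 (SE 0.744), with a limma adjusted p of 0.692, and it was 0.14 without Myc-depleted replicate 2. Within arrays of like spike-in value it was 2.44 and -0.17 in the same order. Of 12 leukocyte and macrophage markers 5 were over the threshold, and their mean level over the list was 5.27 and 5.31 in control cells and 5.31 and 5.51 in Myc-depleted cells. The defining leukocyte markers Ptprc (4.30), Cd68 (4.63), Itgam (4.29) and Tyrobp (4.48) were under it, while Csf1r (9.38), Lyz1 (6.20), Laptm5 (5.65), Fcer1g (5.36) and Adgre1 (5.27) were over it. Lyz1, the neighbouring lysozyme gene of near-identical sequence, gave 5.03 and 6.23 in control cells and 5.91 and 7.64 in Myc-depleted cells, and probes for this pair may share transcripts. The mean level of the leukocyte and macrophage list includes Lyz1 and so is not independent of this pair.

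The last AT2 markers were under the threshold. They were Napsa, a protease that processes surfactant protein B (mean 5.05), the mucin Muc1 (5.05), the class II invariant chain Cd74 (4.95), the chitinase-like protein Chil1 (4.77) and the calcium-binding protein S100g (3.58). Their differences ran from 0.01 for S100g to 0.23 for Cd74.

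AT1 markers included genes far over the threshold that fibroblasts and endothelium also use. Cav1, the coat protein of caveolae, gave 13.46 and 13.43 in control cells and 13.21 and 13.24 in Myc-depleted cells. It was lower on both Myc-depleted arrays by a difference of -0.22, with a limma adjusted p of 0.594. Pdpn, the membrane glycoprotein podoplanin, gave 11.65 and 11.63 in control cells and 11.87 and 11.85 in Myc-depleted cells. It was higher on both by 0.23, with a limma adjusted p of 0.591. The SD of the 2 arrays of a group ran from 0.015 to 0.022 for these genes, so the groups separated although the differences were small.

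Emp2, an epithelial membrane protein of the tetraspan family, had the lowest p of the tested markers. It gave 10.75 and 10.70 in control cells and 10.02 and 10.26 in Myc-depleted cells, and the groups did not overlap. The difference was -0.59 (SE 0.139, 95% interval -0.97 to -0.20), with a limma adjusted p of 0.387 (unadjusted p = 0.0132). A second Emp2 probe set gave 7.60 and 6.79 in control cells and 5.69 and 6.96 in Myc-depleted cells, a difference of -0.87. The remaining one gave 8.32 and 7.39 in control cells and 6.08 and 8.04 in Myc-depleted cells, a difference of -0.79. In these dimmer probe sets the groups overlapped, since Myc-depleted 2 lay over control 2. Control 2 and Myc-depleted 1 were there both under the other arrays.

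In the brightest probe set the groups did not overlap, so the difference within arrays of like spike-in value was bound to be negative too. Myc-depleted 2 minus control 1 gave -0.49, and Myc-depleted 1 minus control 2 gave -0.68. With the spike-in value as a covariate the limma adjusted p was 0.0244. That fit, added after seeing the data, left 1 residual degree of freedom. It called 3171 of all 27,022 probe sets, and the main fit called 0. Among tested marker probe sets 6 of 26 had control 2 and Myc-depleted 1 both below the other arrays, as did 22.2% of all tested probe sets.

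Aqp5, the water channel that the study used as its AT1 marker, read near the threshold. It gave 5.28 and 5.13 in control cells and 5.07 and 5.11 in Myc-depleted cells. Its difference was -0.11 (95% interval -0.45 to 0.22), with a limma adjusted p of 0.838 (unadjusted p = 0.410). Hopx, a homeodomain-only cofactor, was higher on both Myc-depleted arrays by 0.14. Rtkn2 differed by -0.19 with overlapping groups, and Akap5, an anchor for protein kinase A, by 0.01. Ager, the receptor for advanced glycation end products and a defining marker of AT1 cells, had a mean of 5.04 and a difference of -0.12, and its dimmer probe set was raised on Myc-depleted 1 alone, at 5.36. Clic5, a chloride intracellular channel protein, had a mean of 4.57 and a difference of -0.0038.

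Promoters of the AT1 markers Pdpn, Hopx and Aqp5 hold the letters CACGTG, the E-box that Myc binds with its partner Max. The 30 bases around each motif are shown for these genes because Myc was the factor depleted. They come from RefSeq windows of assembly GRCm38.p6, which run from 250 bases before a gene's start to 50 after it, and the capitals mark the motif.
Pdpn: aactgtttactgCACGTGgcccccttttct
Hopx: tggcaaggccccCACGTGctagcccgcggc
Aqp5: tgccgcgtgggtCACGTGgcccgggcgggt
The Pdpn stretch is chr4:143299691-143299720 on the minus strand, with the motif 144 bases before the start. The Hopx stretch is chr5:77095336-77095365 on the minus strand, with the motif 86 bases before the start. The Aqp5 stretch is chr15:99590929-99590958 on the plus strand, with the motif 87 bases before the start. CACGTG reads the same on both strands and was the only motif searched. It was in 3 of 32 windows of 28 markers (9.38%) and in 2349 of all 32,851 windows (7.15%). The expression differences of these genes were 0.23 for Pdpn, 0.14 for Hopx and -0.11 for Aqp5, and a match of letters is a description of the window and not a binding site.

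The club cell markers were led by Cbr2, a carbonyl reductase abundant in club cells. Cbr2 gave 7.17 and 7.51 in control cells and 6.91 and 6.37 in Myc-depleted cells. It was lower on both Myc-depleted arrays. The difference was -0.70 (SE 0.247, 95% interval -1.39 to -0.02), with a limma adjusted p of 0.490 (unadjusted p = 0.0470). Within arrays of like spike-in value it was -0.80 and -0.60, which share a sign because the groups did not overlap. With that value as a covariate, in the added fit that called 3171 probe sets of all, the limma adjusted p was 0.0109. The difference was -0.43 without Myc-depleted replicate 2.

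Scgb1a1, the secretoglobin that defines club cells and one of the markers of the BASC definition, gave 4.35 and 4.37 in control cells and 4.41 and 4.68 in Myc-depleted cells. All 4 arrays lay under the threshold, and its mean stood at percentile 19.8 of all probe sets. The difference was 0.18, with an interval of -0.18 to 0.54 and an unadjusted limma p of 0.241 in the fit without a filter. Scgb3a1 and Scgb3a2, secretoglobins of the upper and lower airways, had means of 5.24 and 4.96 and differences of 0.07 and 0.08.

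Of the remaining secretory markers, Gabrp, Elf3 and Ehf were over the threshold and Spdef under it. Gabrp, a subunit of the GABA receptor, gave 5.78 and 5.88 in control cells and 5.83 and 6.10 in Myc-depleted cells, with overlapping groups and a difference of 0.14. The epithelial Ets factors Elf3, Ehf and Spdef had means of 5.39, 5.11 and 4.90 and differences of -0.13, 0.09 and 0.06. Among the ciliated markers, Tppp3, which stabilises microtubules, had a mean of 5.14 with overlapping groups and a difference of 0.04. Tekt1, a protein of the ciliary microtubules, and Dynlrb2, a light chain of dynein, had means of 4.34 and 4.30.

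**Figure D2:**
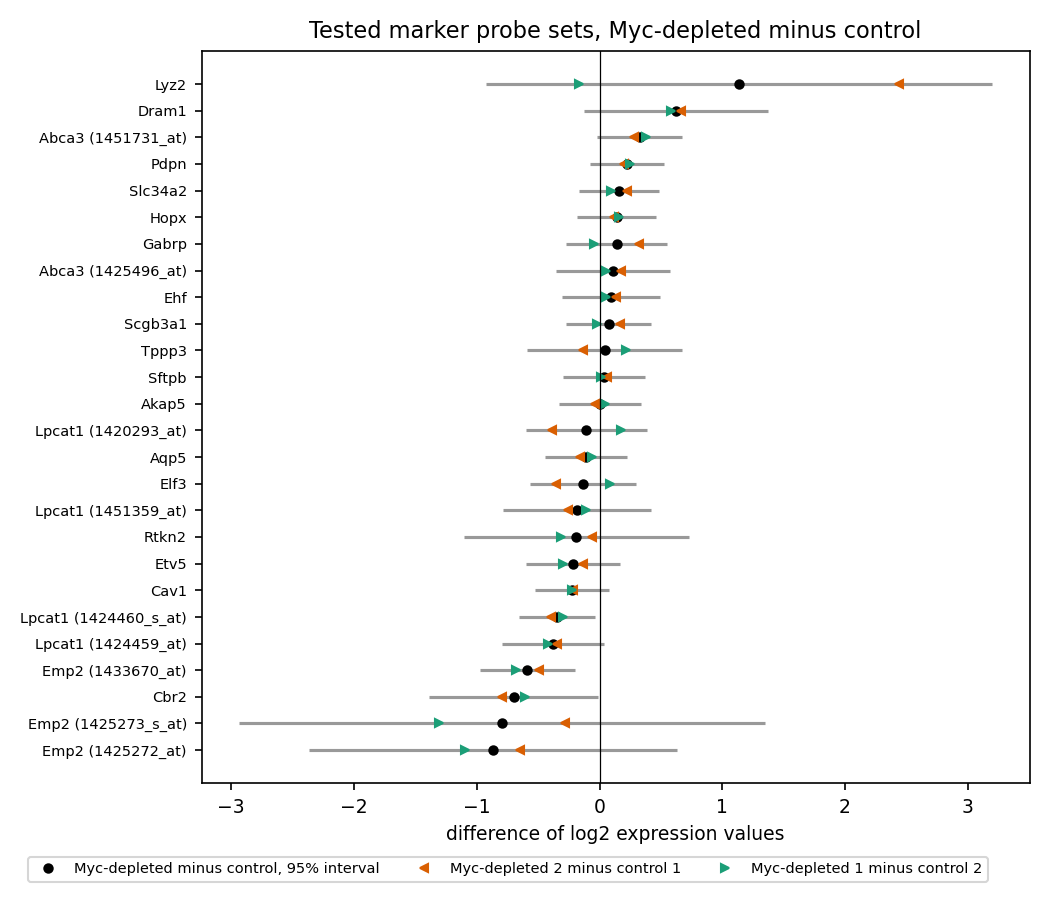
Difference of log2 expression values, Myc-depleted minus control, for each of the 26 marker probe sets tested, with the 95% interval of limma as a grey bar. The triangles give the difference within each pair of arrays with a like spike-in value. The interval lies wholly under 0 for 1 probe set each of Emp2, Lpcat1 and Cbr2, and no probe set passed the adjusted threshold.

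Across the tested marker probe sets, no difference between Myc-depleted and control cells passed the test. After Benjamini-Hochberg adjustment over 27,022 probe sets, limma called 0 of 26 (0.0% of all), with a lowest adjusted p of 0.387 among the markers and 0.110 among all. An unadjusted p under 0.05 was reached by 3 of 26 (11.5%), those of Lpcat1, Emp2 and Cbr2, all lower, and by 10.1% of all. Without control replicate 1 or without control replicate 2 this count was 0, and the share of all fell to 2.61% and 3.46%. The groups did not overlap for 5 of 26 that were higher (19.2%) and 7 that were lower (26.9%), against 22.5% and 18.5% of all. A difference of 1 or more in size was seen for 1 of 26, Lyz2, against 1.38% of all, and with an unadjusted p under 0.05 as well for 0, against 1.17% of all. The median difference was -0.05 over the markers and -0.002 over all tested probe sets. By class it was 0.04 for AT2, -0.19 for AT1 and 0.07 for club and secretory markers. The share with an unadjusted p under 0.05 thus lay near that of all probe sets.

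With no filter, 7 of the 60 marker probe sets (11.7%) reached an unadjusted p under 0.05, and 8.49% of all did. These were 2 of Lpcat1 and 1 each of Sftpc, Abca3, Emp2, Cbr2 and Ehf. The group sizes limit what can be seen, since with 2 arrays against 2 the smallest two-sided exact permutation p of a single gene is 0.333. Myc itself, read by 1 probe set, gave 9.21 and 9.69 in control cells and 8.35 and 8.50 in Myc-depleted cells, a difference of -1.02 with a limma adjusted p of 0.363. Its groups did not overlap, and its unadjusted limma p was under 0.05. The paper also measured c-Myc in its stable lines, as mRNA by real-time PCR and as protein by western blot.

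**Figure D3:**
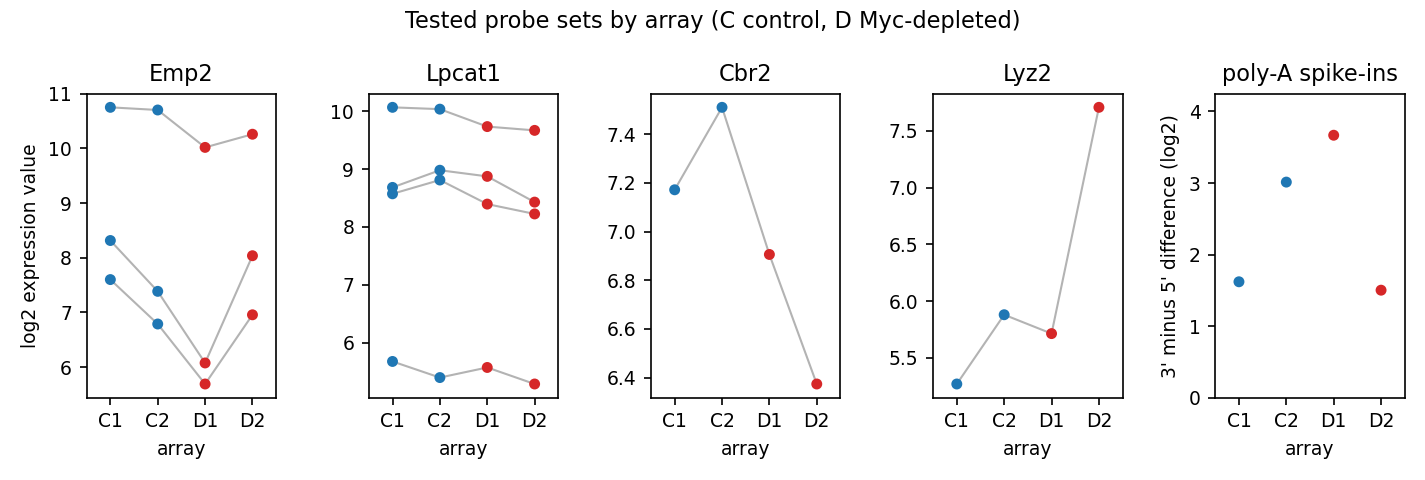
Log2 expression value of every tested probe set of Emp2, Lpcat1, Cbr2 and Lyz2 on each array (C1 and C2 control, D1 and D2 Myc-depleted; grey lines join the values of 1 probe set), with the spike-in 3′ minus 5′ difference of each array at the right. The dimmer Emp2 probe sets are lowest on D1, whose spike-in difference is 3.67, and Lyz2 stands apart on D2 at 7.71.

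Further genes of the same cell types were counted in the same way. Over the threshold were 5 of 13 further AT2 genes, 8 of 14 AT1 genes, 6 of 11 club genes and 8 of 18 ciliated genes. None was called in limma. An unadjusted p under 0.05 was reached by 1 of 8 tested AT2 probe sets (12.5%), 4 of 14 AT1 probe sets (28.6%), 0 of 8 club probe sets and 1 of 11 ciliated probe sets (9.09%), and by 10.1% of all. With no filter, 2 of 18 club probe sets (11.1%) reached it, and 8.49% of all. One was Cyp2f2, left untested by its mean of 4.91, with 4.58 and 4.35 in control cells and 5.26 and 5.44 in Myc-depleted cells. Its difference was 0.88, with a limma adjusted p of 0.315 in the fit without a filter. The alarmin Il33 gave 5.08 and 4.84 in control cells and 6.03 and 5.92 in Myc-depleted cells, a difference of 1.02 (limma adjusted p = 0.292). Both control arrays were under the threshold, so that Il33 entered the test through the group in which it was higher. Lmo7, a junction-linked LIM protein, gave 6.09 and 6.37 in control cells and 4.51 and 4.49 in Myc-depleted cells, a difference of -1.73 (limma adjusted p = 0.259). It likewise entered the test through the control arrays, with both Myc-depleted arrays under the threshold. Timp3, an inhibitor of metalloproteinases, differed by 1.01, the receptor Gprc5a by -0.61 and Rfx3, a factor for ciliary genes, by 0.41, with -0.16 on its other tested probe set.

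Transcription factors of the lung epithelium were mixed. Of 19 with a probe set, 13 were over the threshold, among them Foxa1 (7.04) and Gata6 (7.79), whereas Foxa2 (4.44) and Sox2 (3.71), factors of the lung and airway epithelium, were under it. Of their 39 tested probe sets 6 (15.4%) reached an unadjusted limma p under 0.05, and 10.1% of all did. A difference of 1 or more in size was seen for 3 of the 39 (7.69%), and for 1.38% of all. None was called in limma after adjustment. Cebpa, a factor for AT2 maturation, gave 6.30 and 6.33 in control cells and 7.95 and 7.31 in Myc-depleted cells, a difference of 1.31 (limma adjusted p = 0.350). Klf5, an epithelial zinc-finger factor, gave 8.04 and 8.00 in control cells and 6.94 and 6.09 in Myc-depleted cells, a difference of -1.50 (limma adjusted p = 0.376), with -0.45 and -0.17 on its other tested probe sets. Foxp2, a forkhead repressor of the distal lung, gave 6.71 and 6.82 in control cells and 5.42 and 5.44 in Myc-depleted cells, a difference of -1.33 (limma adjusted p = 0.259), with 0.19 on its other tested probe set. Id2, an inhibitor of helix-loop-helix factors, differed by 0.38.

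General epithelial genes and markers of other cell types were read on the same arrays. Of 15 pan-epithelial markers, 8 were over the threshold and 7 under it, and genes of 1 kind fell on both sides. Among keratins Krt19 (6.70) was over it, and Krt8 (4.92) and Krt18 (4.36) were under it. Of the splicing factors Esrp2 (5.78) was over it and Esrp1 (4.05) under it. Among genes of junctions and polarity Crb3 (6.16), Ocln (5.28) and Cldn4 (5.08) were over it, and Cdh1 (4.30) and Cldn7 (4.34) under it. Epcam, an epithelial adhesion molecule, was at 7.33 on one probe set and at 4.54 on its other, and the brighter one differed by 0.65 (limma adjusted p = 0.40). Of 17 fibroblast and mesenchymal markers 15 were over the threshold, with a median gene level of 12.63, among them Col1a2 (14.45), Vim (14.46), Sparc (13.74) and Acta2 (14.20). Dcn (5.72) and Thy1 (5.34) lay nearer to it, and Lum (4.32) and Tcf21 (4.83) were under it. The mean level of that list was 10.95 and 11.09 in control cells and 10.99 and 10.88 in Myc-depleted cells, so the groups overlapped. Within it Pdgfra differed by 1.23, Dcn by 0.67, Thy1 by -1.26 and Tagln by -0.99, each with an unadjusted limma p under 0.05. Such a p was reached by 7 of 30 tested probe sets of the list (23.3%), 5 higher and 2 lower, and by 10.1% of all. None was called after adjustment. Both Thy1 values of Myc-depleted cells were under the threshold. Feeder fibroblasts were used when the cells were first plated. For the established cells the paper names both passage onto feeders and culture on collagen, and the source of this RNA was not tested.

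Endothelial markers fell on both sides of the threshold. Of 11 with a probe set 4 were over it, Eng (9.48), Kdr (5.65), Plvap (5.45) and Esam (5.19), and the defining markers Pecam1 (4.11) and Cdh5 (4.38) were under it. Plvap differed by 0.54. Among the genes of the sort, Ptprc and Pecam1, the genes for the sorted-out CD45 and CD31, were under the threshold, and so was Cd34 (3.81), the gene for a marker the cells were sorted to carry. Ly6a, the gene for the other such marker, Sca-1, had no probe set that names it alone and was not read. The cells are called BASCs here as the labels name them. The genes for both defining BASC proteins and for Nkx2-1 read under the threshold, and the proteins themselves, for which the study stained its cells, were not measured on these arrays. In such bulk RNA, fewer cells of a type and less RNA per cell cannot be told apart.

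**Figure D4:**
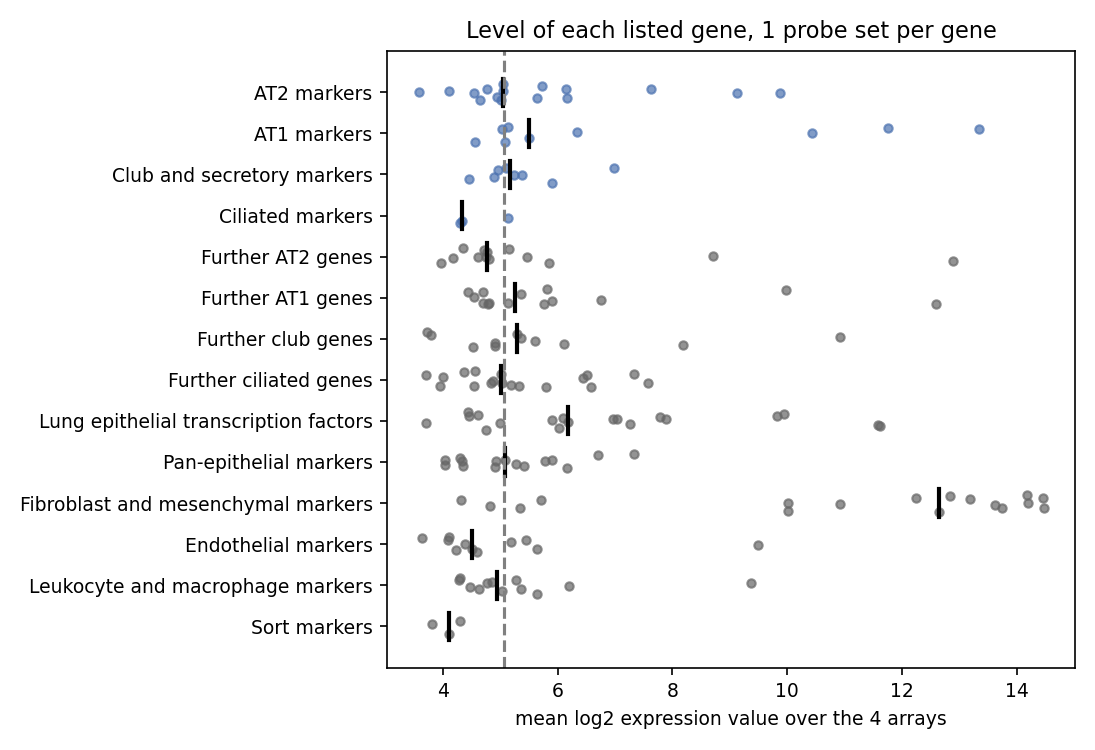
Mean log2 expression value over the 4 arrays of each listed gene (1 point per gene, its brightest probe set), with the marker classes in blue, other lists in grey and the median of each list as a black bar. The dashed line is the low-value threshold, log2 5.08. Most fibroblast and mesenchymal markers lie over 10, with a median of 12.63, while the medians of the 4 marker classes lie between 4.34 and 5.51.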

How the data were processed

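Labelled RNA of 4 samples was read on single-colour arrays. The values the authors deposited are log2 expression values. They used Partek 6.4, and their methods name Robust Multichip Average normalization, whereas the submitters' processing notes name GCRMA, and which was used is not settled here. Array medians lay between 5.48 and 5.49.

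The 64 control probe sets were left out. Groups were compared by lmFit and eBayes of limma 3.58.1 under R 4.3.3 (group as the one factor; 2 residual and 2.02 prior degrees of freedom) on probe sets with a mean over log2 5.08, with Benjamini-Hochberg adjustment over 27,022. The fit was tested on simulated data. A gene is represented by its brightest probe set that names it alone. Other probe sets are stated where they are tested and differ in sign or by over 0.5. Full statistics are given for markers with an unadjusted p under 0.05 or a difference of 1 or more, and for Sftpc, Scgb1a1, Aqp5 and Nkx2-1. Of each other list, up to 4 genes over the threshold with the smallest p are named, plus defining markers under it. Members, lists and rules were chosen with earlier results of these data known. All 60 marker probe sets matched RefSeq genes of GRCm38.p6 by gene identifier. Alternatives covered the filter, scaling, floor, variance model, the methods' ANOVA, replicate block and each array left out. The number of arrays limits the precision.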

Additional observations from a re-analysis of the deposited data

How the results depend on the processing

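No alternative scaling, floor, filter or variance model brought a marker past the adjusted threshold, nor did leaving out any 1 array. With the spike-in 3′ minus 5′ difference as a covariate, chosen after seeing the data and leaving 1 residual degree of freedom, 5 of 26 marker probe sets were called (1 of Dram1, 3 of Emp2 and 1 of Cbr2), as were 3171 of all 27,022. In that fit 9 marker probe sets had an unadjusted p under 0.05 in place of 3 (30.1% of all in place of 10.1%). That count was 7 with no filter (8.49% of all), 0 with the replicate block (3.73%), 8 with the crossed pairing, also added after seeing the data (20.9%), 4 by the methods' ANOVA (9.33%), and 0 to 4 with 1 array left out (2.61% to 13.9%). Deviations of same-numbered arrays correlated at -0.77, so their values did not move together. The labels do not say whether the numbers pair the arrays. After adjustment the replicate block called 0 probe sets of all and the crossed pairing 21, none a marker. The count of marker probe sets with groups that did not overlap, 12, was 24 with no filter and 16 to 23 with 1 array left out, where fewer arrays have to separate. The difference of Akap5 turned to -0.0043 under quantile normalization and -0.0091 under the spike-in covariate, and that of Tppp3 to -0.016 under the spike-in covariate. With 1 array left out, the difference ran from -0.026 to 0.097 for Sftpb, -0.56 to 0.18 for Rtkn2, -0.062 to 0.074 for Akap5, -0.016 to 0.16 for Scgb3a1, -0.020 to 0.20 for Ehf and -0.23 to 0.31 for Tppp3; the cause was not tested. Of 309 values of the 20 tested marker genes under all alternatives, 293 kept their direction and side of the threshold. Between 19 and 37 marker probe sets lay over the low-value threshold when it was set at the 50th or 30th percentile. For the 16 marker genes under the threshold, a low level limits what a difference can show.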

Other observations

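Genes of lipid synthesis that surfactant production draws on were well over the low-value threshold, for all 19 with a probe set, with a median gene level of 9.86. Most cell types use these enzymes for their membranes. None was called in limma, and 11 of 48 tested probe sets (22.9%) reached an unadjusted p under 0.05, as did 10.1% of all. By gene, these were 3 higher and 1 lower on the probe set that represents it. Chpt1, which makes phosphatidylcholine, gave 9.56 and 9.48 in control cells and 9.86 and 10.24 in Myc-depleted cells, a difference of 0.53 (limma adjusted p = 0.463). Scp2, a sterol carrier, differed by 0.71 (limma adjusted p = 0.331) and Gpam, an acyltransferase of triglyceride synthesis, by 0.38. Fabp5, a fatty acid binding protein, gave 12.41 and 12.54 in control cells and 11.29 and 11.32 in Myc-depleted cells, a difference of -1.17 (limma adjusted p = 0.263), and its other tested probe set differed by -1.57.

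Class II genes of antigen presentation, which AT2 cells express together with Cd74, had 2 of 6 members over the threshold, H2-DMa (5.55) and H2-Eb1 (5.44). H2-Aa (4.99), H2-Ab1 (4.51) and their regulator Ciita (4.51) were under it.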
